A study of Mus musculus with 15 samples.

Results

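Growth hormone acts on the liver through its receptor, the kinase JAK2 and the transcription factors STAT5A and STAT5B, and the liver answers by secreting insulin-like growth factor 1 (IGF1) and its carrier protein. The values below describe 10 genes of this axis, named one by one: Ghr, Prlr, Stat5a, Stat5b, Igf1, Igfals, Socs2, Cish, Bcl6 and Cux2. They were 10 of the 37991 genes of the deposited count table, and all 10 were among the 14258 genes that passed the filter on low counts. They were listed by name, with earlier results of these data known.

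The study sequenced polyadenylated RNA from whole liver of female mice on the C57BL/6 background, with or without a constitutive deletion of S6K1, the kinase encoded by Rps6kb1. There were 5 young S6K1 WT mice of 90 days, 5 old S6K1 WT mice of 600 days and 5 old S6K1 KO mice of 600 days, written here as young WT, old WT and old KO, with 1 mouse behind each library. No young KO livers were analysed here, so the effect of the deletion could be read only at the old age. The deletion was carried by all cells of the mouse from conception, and the WT and KO mice came from heterozygous matings.

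Binding of growth hormone to its receptor activates JAK2, which phosphorylates the STAT5 proteins so that they enter the nucleus and bind DNA. In hepatocytes STAT5 drives transcription of Igf1, of Igfals and of the feedback inhibitors Socs2 and Cish. In rodents the hormone reaches the liver in a pattern that differs between the sexes, and the repressors BCL6 and CUX2 sit downstream of STAT5, with Bcl6 higher in male and Cux2 higher in female liver.

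STAT5 dimers bind a palindrome of 9 bases, TTCNNNGAA, which reads the same on both strands. The promoter windows of the axis genes were searched for these letters, each window running from 250 bases before to 50 bases after an annotated RefSeq transcription start (GRCm38.p6). The letters were present in 2726 of all 32851 windows (8.3%) and in at least 1 window of 2582 of the 27025 genes with a window (9.55%). Among the 9 members with a window, 4 had a match (44.4%), namely Igfals, Cish, Bcl6 and Prlr, and 6 of the 18 windows of these 9 members held the letters (33.3%). For each of these 4 genes the window with the most matches, or with the match nearest to a start, is shown 5′ to 3′ on the strand of the gene, 250 bases of each, because these letters are the ones STAT5 recognizes. Capitals mark the matches.
Igfals, chr17:24877981-24878230, plus strand: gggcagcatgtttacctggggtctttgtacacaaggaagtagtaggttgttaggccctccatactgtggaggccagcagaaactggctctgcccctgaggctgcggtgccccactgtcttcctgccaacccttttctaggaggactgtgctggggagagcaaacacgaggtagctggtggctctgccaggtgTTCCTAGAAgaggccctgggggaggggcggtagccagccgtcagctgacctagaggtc
Cish, chr9:107296429-107296678, plus strand: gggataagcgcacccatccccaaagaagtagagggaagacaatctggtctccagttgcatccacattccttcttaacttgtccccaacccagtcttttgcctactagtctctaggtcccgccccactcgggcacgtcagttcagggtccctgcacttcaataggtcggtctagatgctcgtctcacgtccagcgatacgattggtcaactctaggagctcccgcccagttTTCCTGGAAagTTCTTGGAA
Bcl6, chr16:23981284-23981533, minus strand: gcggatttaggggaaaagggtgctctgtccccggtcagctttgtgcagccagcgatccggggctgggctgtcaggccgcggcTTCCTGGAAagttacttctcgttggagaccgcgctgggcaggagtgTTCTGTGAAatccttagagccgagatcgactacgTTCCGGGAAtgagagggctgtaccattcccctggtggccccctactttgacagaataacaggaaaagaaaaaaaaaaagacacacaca
Prlr, chr15:10223656-10223905, plus strand: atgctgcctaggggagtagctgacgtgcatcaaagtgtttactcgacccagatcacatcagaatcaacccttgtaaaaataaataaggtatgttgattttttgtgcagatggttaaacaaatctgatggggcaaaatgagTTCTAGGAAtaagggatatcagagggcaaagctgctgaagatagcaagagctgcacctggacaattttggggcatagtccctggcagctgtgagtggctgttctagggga
In the Cish window the matches TTCCTGGAA and TTCTTGGAA began at the start site itself and at base 12, counting the start as base 1. The Bcl6 window belongs to an internal start and held 3 matches, TTCCTGGAA, TTCTGTGAA and TTCCGGGAA, beginning 168, 122 and 88 bases before that start. A count of 3 or more was found in 11 of all 32851 windows (0.0335%), and a count of 2 or more in 150 (0.457%). The Igfals window held TTCCTAGAA from 58 bases before its start and the Prlr window TTCTAGGAA from 110 bases before its start. No match was in the windows of Ghr, Stat5a, Stat5b, Igf1 or Cux2, which says only that these letters were not in these 300 bases. A match of letters is not evidence of binding, which was not measured here.

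Library totals ran from 21801754 to 38065359 counts, and levels are given as CPM, counts relative to the library total after scaling by the TMM method of edgeR. Rps6kb1 had a mean of 38.4 ± 4.21 CPM (SD, n = 5) in old WT and 17.0 ± 2.23 in old KO livers, with no overlap, so its transcripts were reduced and not lost. Xist was present in all 15 libraries and Ddx3y and Kdm5d, on the Y chromosome, had no count in any of them. Of the other Y-linked genes checked, Eif2s3y had at most 1 count in a library and Uty had up to 22 counts, from 0.259 to 0.713 CPM. The 8 hepatocyte markers together took 78083 to 146115 CPM. The first principal component separated young from old livers (31.8% of the variance), while old WT 7 stood apart from the rest on the second (13.1%). This was bulk tissue, in which fewer cells of a type and less RNA per cell cannot be told apart.

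With age, transcripts of both hormone receptors, of Stat5a and of the IGF1 carrier Igfals rose in WT liver, while Igf1 itself, the feedback inhibitors and the repressors did not pass the test. In old WT against young WT livers, 4 of the 10 members had an adjusted p under 0.05 in edgeR's quasi-likelihood test, all of them higher. Over all tested genes 18.8% passed in either direction and 9.92% were higher. The median log2 fold change of the 10 members was 0.39, beside 0.00797 over all tested genes. In 2 members, Ghr and Prlr, no old WT liver overlapped the young WT range, and such a gap was found in 11.4% of all tested genes.

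**Figure D1:**
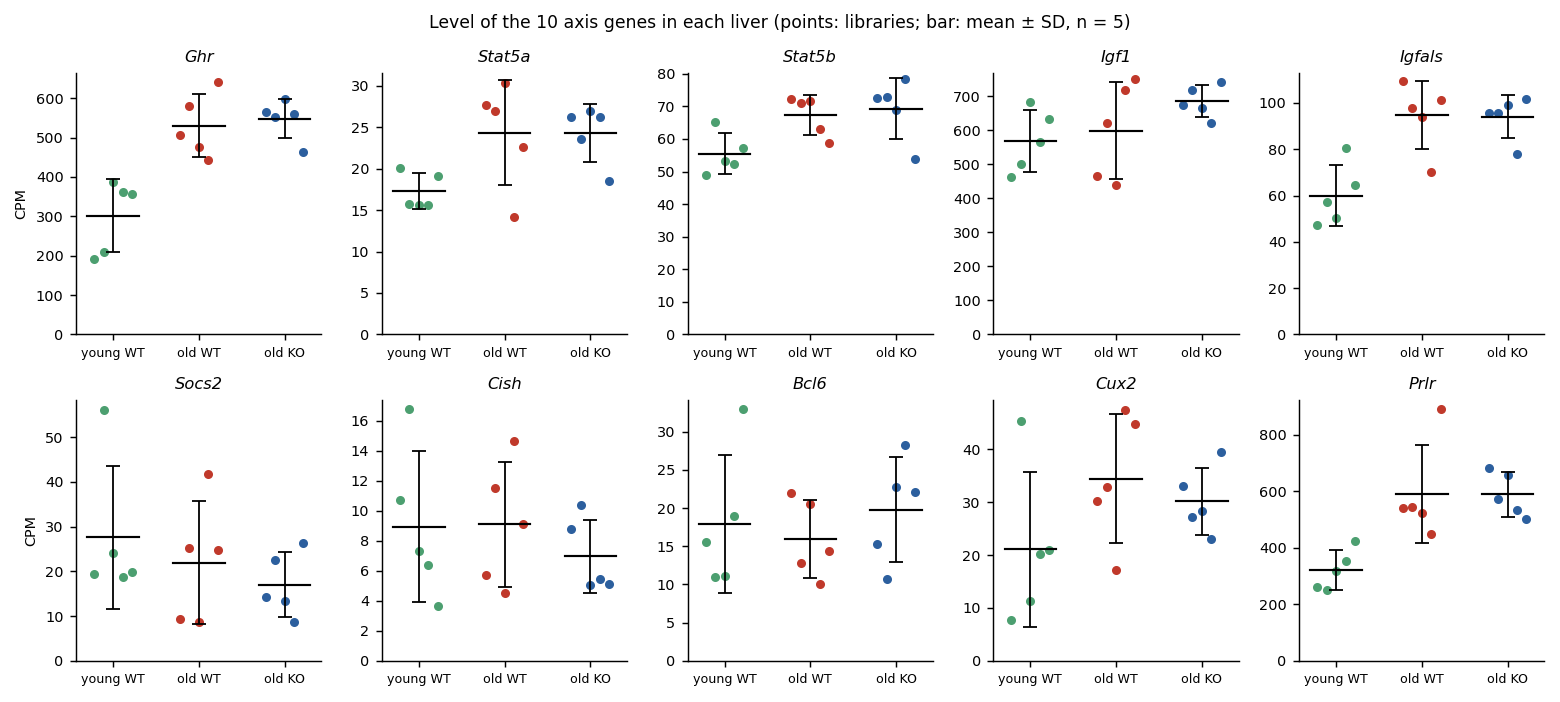
Level of each of the 10 axis genes in CPM (linear axis from 0), 1 point for each liver, with the mean and SD of the 5 livers of a group as bars. For Ghr and Prlr all young WT points lie below all old points. The points of Socs2, Cish and Bcl6 scatter widely within each group, and those of Cux2 within young WT and old WT.

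The values that follow are CPM, listed for young WT in the order of replicates 1, 2, 3, 4 and 6, for old WT in the order 1, 4, 5, 7 and 10, and for old KO in the order 1, 2, 4, 5 and 6.

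Ghr encodes the growth hormone receptor of the hepatocyte surface (chromosome 15, 3267760 to 3533492, minus strand, NCBIM37). It was at 192, 210.0, 388, 363 and 357 CPM in young WT, at 507, 579.8, 477, 444 and 641 in old WT and at 566, 553, 599, 559.9 and 464 in old KO livers. The lowest old liver lay above the highest young liver, and young WT 1 and 2 were clearly below the other young livers. Ghr rose 1.76-fold with age (95% interval 1.38 to 2.24), which is 0.81 ± 0.179 on the log2 scale (SE, adjusted p = 0.00618 in edgeR).

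Prlr encodes the prolactin receptor, which in rodent liver is itself under hormonal control and signals through the same JAK2 and STAT5 proteins (chromosome 15, 10106993 to 10303504, plus strand). It stood at 260.1, 250.2, 319, 354 and 422 CPM in young WT, at 542, 545, 522, 447 and 892 in old WT and at 683, 573, 657, 532 and 499.9 in old KO livers. Every old liver was above every young liver, and old WT 10 was far above the rest of its group. Prlr rose 1.84-fold with age (95% interval 1.44 to 2.35), which is 0.88 ± 0.180 on the log2 scale (adjusted p = 0.00430 in edgeR). The annotated exons of Prlr share 155 bases with those of Agxt2 on the same strand, and how reads there were counted is not given in the sources used here.

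Stat5a and Stat5b lie next to each other on chromosome 11 (100720665 to 100746483, plus strand, and 100642045 to 100712038, minus strand) and encode the closely related factors that carry the signal to the nucleus, of which STAT5B is the main form in liver. Stat5a was at 20.1, 15.8, 15.6, 15.6 and 19.1 CPM in young WT, at 27.7, 27.0, 30.3, 14.1 and 22.6 in old WT and at 26.2, 23.6, 26.9, 26.2 and 18.5 in old KO livers. The groups overlapped through old WT 7, which was below all young livers, while the other 4 old WT livers were above all of them. Stat5a rose 1.41-fold with age (95% interval 1.13 to 1.77, log2 fold change 0.50 ± 0.166, edgeR adjusted p = 0.0460). That call was close to the threshold and was lost in 12 of the 15 fits that each left out 1 library, with adjusted p up to 0.121 without old WT 5, while the log2 fold change was 0.41 or more in each of them. Its exons share 72 bases with Stat3 on the opposite strand, and reads of the pair cannot be told apart there if strand was not used in counting.

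Stat5b was at 48.9, 65.3, 53.2, 52.4 and 57.3 CPM in young WT, at 72.2, 71.0, 71.7, 63.1 and 58.6 in old WT and at 72.7, 72.8, 68.9, 78.4 and 53.7 in old KO livers. Young WT 2 was above old WT 7 and old WT 10, and old KO 6 was within the young range. The log2 fold change with age was 0.28 ± 0.103 (1.22-fold, 95% interval 1.06 to 1.40), and edgeR's adjusted p of 0.0668 missed the threshold. It was 0.0381 without young WT 2, 0.0470 without old WT 10 and 0.0323 without old KO 6. In the other 12 fits without 1 library it missed the threshold, with adjusted p up to 0.158.

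Igf1 encodes the growth factor that the liver releases into the circulation under growth hormone (chromosome 10, 87321010 to 87399792, plus strand). It was at 464, 499.9, 682, 566 and 633 CPM in young WT, at 466, 621, 439, 717 and 752 in old WT and at 675, 718, 667, 623 and 742 in old KO livers. The 3 groups overlapped, and the old WT livers fell apart into a pair near the lowest young liver, old WT 1 and 5, and 3 others at 621 CPM or more. The log2 fold change with age was 0.07 ± 0.148, with an edgeR adjusted p of 0.761 and a 95% interval of 0.861- to 1.29-fold.

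Igfals encodes the acid-labile subunit, the liver-made protein that holds circulating IGF1 in a long-lived complex with a binding protein (chromosome 17, 25014600 to 25018955, plus strand). It stood at 47.2, 57.0, 50.5, 80.5 and 64.4 CPM in young WT, at 109.7, 97.9, 94.1, 70.3 and 101 in old WT and at 95.7, 95.8, 99.1, 78.1 and 102 in old KO livers. Only old WT 7 and old KO 5 among the old livers lay below young WT 4, the highest young liver. Igfals rose 1.58-fold with age (95% interval 1.31 to 1.91, log2 fold change 0.66 ± 0.140, edgeR adjusted p = 0.00506).

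Socs2 and Cish encode inhibitors that are induced by STAT5 and dampen signalling at the receptor (Socs2 on chromosome 10, 94847996 to 94879814, minus strand, and Cish on chromosome 9, 107198357 to 107205115, plus strand). Socs2 was at 19.4, 56.0, 24.0, 18.7 and 19.8 CPM in young WT, at 9.40, 25.2, 8.62, 41.8 and 24.7 in old WT and at 14.2, 22.5, 13.4, 8.72 and 26.4 in old KO livers. Young WT 2 was far above the other young livers, and old WT ranged 4.85-fold from its lowest to its highest liver. The log2 fold change with age was −0.33 ± 0.426 (95% interval 0.445- to 1.41-fold, edgeR adjusted p = 0.619).

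Cish was at 10.7, 16.8, 7.30, 6.39 and 3.62 CPM in young WT, at 5.69, 11.5, 4.53, 14.7 and 9.12 in old WT and at 8.76, 10.4, 5.05, 5.45 and 5.15 in old KO livers. The ranges of the groups lay over each other, with young WT 2 and old WT 7 highest of all 15. The log2 fold change with age was 0.01 ± 0.371 (95% interval 0.609- to 1.67-fold, edgeR adjusted p = 0.987). The exons of Cish overlap 2 processed transcripts on the opposite strand, Gm17040 and Gm17041, by 261 and 479 bases.

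Bcl6 encodes a transcriptional repressor that competes with STAT5 for many of its sites and is itself turned down by growth hormone (chromosome 16, 23965138 to 23988938, minus strand). It was at 15.6, 11.02, 11.1, 19.0 and 33.0 CPM in young WT, at 21.9, 12.8, 20.5, 10.1 and 14.4 in old WT and at 15.3, 10.7, 22.8, 28.2 and 22.1 in old KO livers. The highest liver was young WT 6, old WT 7 was the lowest, and no group stood apart. The log2 fold change with age was −0.16 ± 0.312 (95% interval 0.585- to 1.37-fold, edgeR adjusted p = 0.755).

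Cux2 encodes a homeodomain repressor that is higher in female than in male liver and represses male-biased genes there (chromosome 5, 122308396 to 122500111, minus strand). It was at 7.71, 45.3, 11.4, 20.2 and 20.9 CPM in young WT, at 30.3, 32.9, 17.1, 47.4 and 44.7 in old WT and at 33.0, 27.2, 28.3, 23.0 and 39.5 in old KO livers. Young WT 2 lay among the highest old livers, while the other 4 young livers lay below 4 of the 5 old WT livers. The log2 fold change with age was 0.71 ± 0.369 (95% interval 0.990- to 2.70-fold), which did not pass the test (edgeR adjusted p = 0.192). Without young WT 2 it was 1.201 with an adjusted p of 0.0200. In the other 14 fits without 1 library Cux2 did not pass, with adjusted p up to 0.359. An annotated pseudogene of the same name shares 414 bases with Cux2 exons.

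Young WT 2 and old WT 7 lay at the same end of the range in several members. Their Socs2 levels, 56.0 and 41.8 CPM, and their Cish levels, 16.8 and 14.7 CPM, were the highest of all 15 livers. Their Cux2 levels, 45.3 and 47.4 CPM, were the highest of the 15 as well, and their Bcl6 levels, 11.02 and 10.1 CPM, were among the 3 lowest. Old WT 10 was close to old WT 7 in Cux2, at 44.7 CPM, and young WT 3 close to young WT 2 in Bcl6, at 11.05 CPM. A fit without young WT 2 and old WT 7 was run after these values were seen. The choice rested on these same members, and young WT 2 held the highest Cux2 and Stat5b of its group. The added calls of Stat5b and Cux2 thus give no support of their own. In that fit 6 members passed the edgeR test, all higher with age. They were Ghr, Stat5a, Igfals and Prlr as before, together with Stat5b (log2 fold change 0.36, adjusted p = 0.0392) and Cux2 (1.05, adjusted p = 0.0369). Over all 14296 genes tested in that fit 1999 were called (14%), and 6.83% were higher.

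The comparison of old KO with old WT livers asks what loss of S6K1 did to the axis at old age, and none of the 10 axis genes passed the test. In old KO against old WT livers, 0 of the 10 members passed edgeR's quasi-likelihood test, 0 had an unadjusted p under 0.05, and 0 passed in DESeq2. Over all tested genes the corresponding shares were 0.533%, 11.6% and 2.14%. Log2 fold changes of the members ran from −0.38 to 0.31 with a median of −0.00327 (all tested genes 0.000797), and the adjusted p from 0.670 to 0.999. No member had groups that did not overlap, against 3.2% of tested genes.

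The intervals show what the 5 livers a group could resolve. For the receptors the old KO to old WT ratio was 1.03 for Ghr (95% interval 0.813 to 1.32) and 0.999 for Prlr (0.783 to 1.27). For the transducers it was 0.997 for Stat5a (0.797 to 1.25) and 1.03 for Stat5b (0.895 to 1.18). Igf1 was 1.14-fold higher in the means of the old KO livers, with an interval from 0.935 to 1.40 (adjusted p = 0.670), and Igfals was at 0.994 (0.822 to 1.201). The variable genes were less well bounded, with intervals of 0.433 to 1.40 for Socs2, 0.462 to 1.29 for Cish, 0.808 to 1.89 for Bcl6 and 0.533 to 1.44 for Cux2. A difference of the size of the age effect on Ghr or Prlr lay outside the intervals of those genes in this comparison, but one of that size in the 4 variable genes could have been missed in at least 1 direction.

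The spread among old KO livers was smaller than among old WT livers in 8 of the 10 members as a coefficient of variation. For Igf1 it was 6.80% in old KO and 23.8% in old WT, for Prlr 13.4% and 29.4%, and for Ghr 9.19% and 15.1%. Stat5b and Bcl6 went the other way, at 13.5% against 9.09% and 34.7% against 31.7%. The old WT spread of Prlr includes old WT 10 at 892 CPM, far above the rest of its group. These spreads were not tested against each other. The share of all tested genes with a smaller spread in old KO livers was not counted, so the count does not set the axis genes apart.

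**Figure D2:**
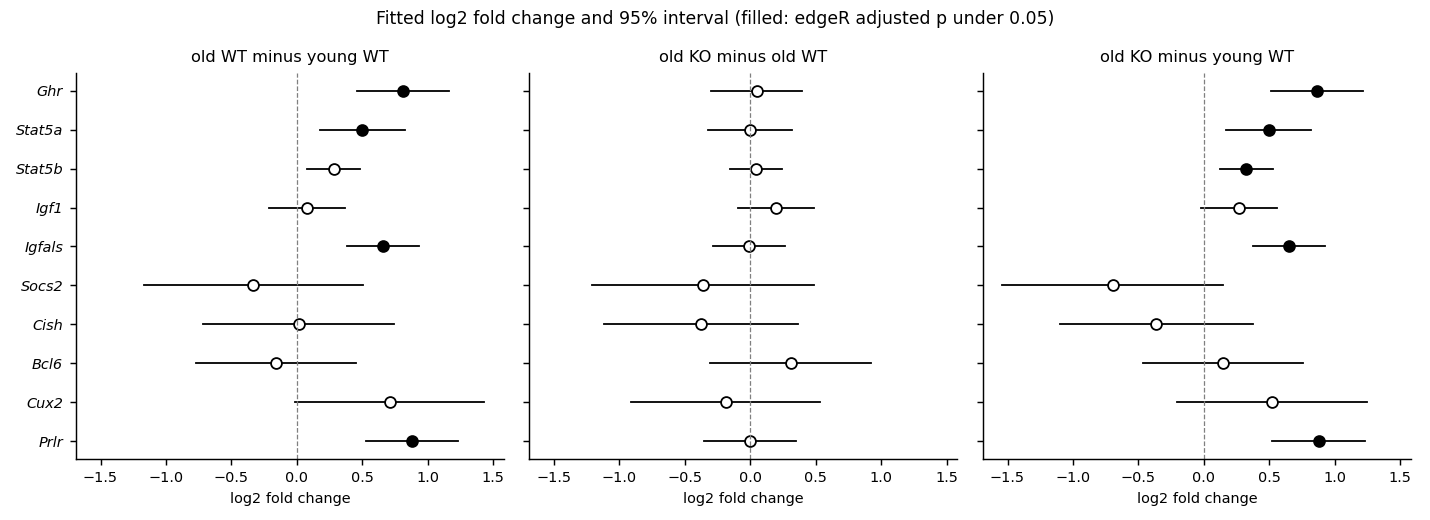
Fitted log2 fold change of each axis gene with its 95% interval in the 3 comparisons, with filled points for an edgeR adjusted p under 0.05. Filled points lie only to the right of 0 and only in the comparisons with young WT, from 0.32 for Stat5b in old KO to 0.88 for Prlr in old WT, and none is filled between the old genotypes.

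Old KO against young WT livers, which differ in both age and genotype, were compared next, and the 4 members that had risen with age were again higher, joined by Stat5b. This comparison uses the same young WT livers as the comparison of age, so the values are not independent. The test was passed by 5 of the 10 members, all higher (23.3% of all tested genes passed, and 12% were higher), and 2, Ghr and Prlr, did not overlap between the groups (13.9% of tested genes). Ghr had a log2 fold change of 0.86 (adjusted p = 0.00339), Prlr 0.87 (0.00320), Igfals 0.65 (0.00413), Stat5a 0.49 (0.0414) and Stat5b 0.32 (0.0332). The calls of Stat5a and Stat5b were each lost in 7 of the 15 fits without 1 library, with adjusted p up to 0.0919 for Stat5a (without old KO 4) and up to 0.0855 for Stat5b (without young WT 1), and both were lost when no filter on low counts was used. Igf1 was at 0.27 (0.204), Socs2 at −0.70 (0.255), Cish at −0.36 (0.514), Bcl6 at 0.15 (0.766) and Cux2 at 0.52 (0.327), none of them past the test. Cux2 passed without young WT 2, at 1.01 (0.0326), and Igf1 passed with the replicate number as a block, at 0.40 (0.0283). In the other 14 fits without 1 library Cux2 did not pass (adjusted p up to 0.568), and Igf1 passed in none of the 15.

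Between genes, levels were compared as CPM per kilobase of annotated exon, a scale that is approximate where many annotated transcripts are not used in liver. In young WT livers Igf1 led with a level of 57.4 ± 9.13 (mean ± SD, n = 5), followed by Ghr at 33.3 ± 10.3, Prlr at 20.7 ± 4.58, Igfals at 20.7 ± 4.59 and Stat5b at 10.005 ± 1.13. Socs2, Bcl6, Cux2 and Stat5a lay close together between 2.42 and 2.89, and Cish was lowest at 1.39 ± 0.786. Stat5b was thus several times more abundant than its neighbour Stat5a in each group. In old WT livers Ghr, at 58.5 ± 8.82, could not be separated from Igf1, at 60.4 ± 14.4, beyond their spread. Prlr at 38.1 ± 11.2 and Igfals at 32.7 ± 5.10 followed, then Stat5b at 12.2 ± 1.10. The neighbours Prlr and Igfals changed order between livers in each group. In young WT Ghr was above Prlr in every liver, with 21.3 against 16.8 in young WT 1 and 42.8 against 20.6 in young WT 3. The ranges of the 5 genes of lowest level overlapped there, although Socs2 was above Cish in every young WT liver. In old KO livers the order was the same as in old WT, from Igf1 at 69.0 ± 4.70 and Ghr at 60.6 ± 5.56 to Cish at 1.08 ± 0.383. The ranges of Igf1 and Ghr overlapped there, but Igf1 was above Ghr in every old KO liver. The gap was narrow in old KO 4, at 67.2 against 66.1, and in old KO 5, at 62.8 against 61.8.

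Ratios between members within a library do not depend on how libraries are scaled, and 5 pairs were compared as log2 ratios of counts: the paralogs Stat5a and Stat5b, IGF1 and its carrier, the feedback inhibitors, the hormone receptors, and the repressors of opposite sex bias. With age the ratio of Igf1 to Igfals was 2.64 ± 0.512 in old WT and 3.26 ± 0.341 in young WT livers (mean ± SD, n = 5), a difference of −0.62 (two-sided exact permutation p = 0.0794, adjusted over 10 tests 0.516). For Socs2 to Cish the difference was −0.51 (exact p = 0.103) and for Bcl6 to Cux2 −0.98 (exact p = 0.190). For Stat5a to Stat5b it was 0.17 (exact p = 0.429) and for Ghr to Prlr −0.00147 (exact p = 0.992). Between old KO and old WT livers the differences ran from −0.00399 for Stat5a to Stat5b to 0.42 for Bcl6 to Cux2, with exact p of 0.325 or more. None of the 10 tests passed after adjustment, where 5 against 5 libraries cannot give less than 0.00794 before adjustment.

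**Figure D3:**
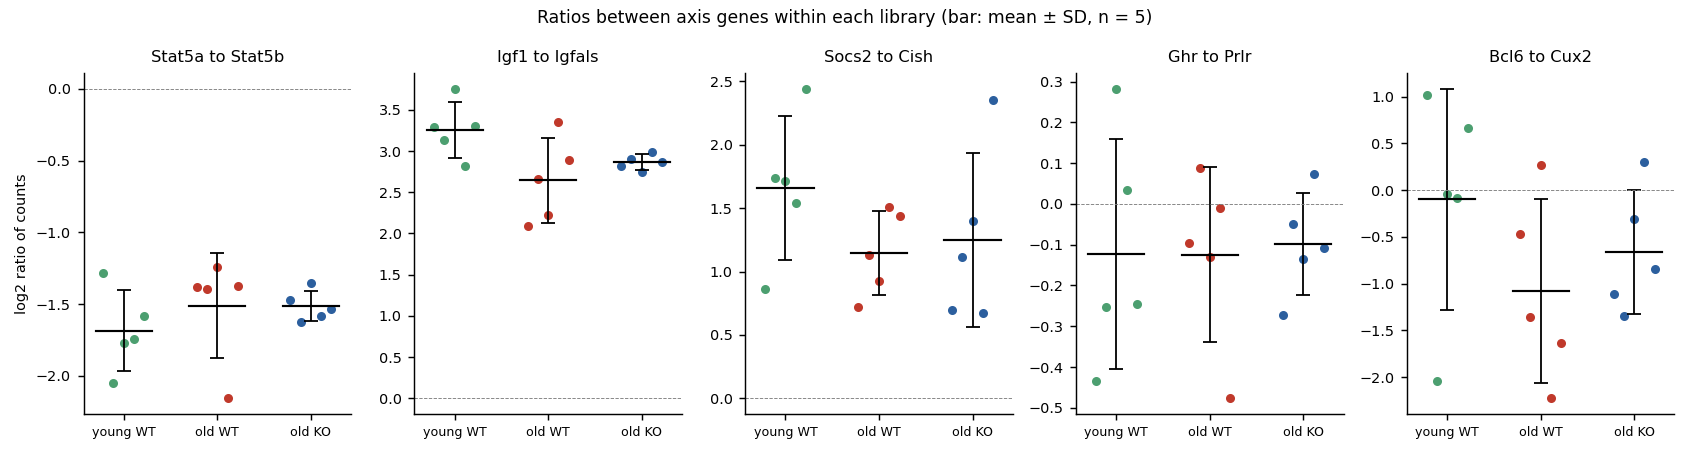
Log2 ratio of counts of 5 pairs of axis genes in each liver, with the mean and SD of each group of 5. The groups overlap in each pair, and the Igf1 to Igfals ratio is the one with the most old WT points, 3 of 5, below all young WT points.

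How the members varied together between animals of the same group was measured from the deviation of each library from its group mean in log2 CPM (prior count 2), over 15 libraries and 45 pairs, an analysis added after the data were seen. Of the 45 pairs, 4 had a permutation p under 0.05 after Benjamini-Hochberg adjustment (8 before), and 2 by Spearman's rho. Cish and Bcl6 went in opposite directions, with r = −0.874 (permutation p = 0.00023, adjusted 0.0103), rho = −0.875 (permutation p = 0.0002, adjusted 0.00900), and r = −0.821 without the 2 libraries farthest from the median of Cish. Ghr and Prlr went together, with r = 0.756 (permutation p = 0.00118, adjusted 0.0265), rho = 0.843 (permutation p = 0.000510, adjusted 0.0115) and r = 0.719 without the 2 farthest libraries. Stat5a and Socs2 were opposed, with r = −0.741 (permutation p = 0.00298, adjusted 0.0364), rho = −0.693 (permutation p = 0.0110, adjusted 0.111) and r = −0.617 without the 2 farthest libraries. Socs2 and Cux2 went together, with r = 0.695 (permutation p = 0.00324, adjusted 0.0364), rho = 0.639 (permutation p = 0.0208, adjusted 0.141) and r = 0.512 without the 2 farthest libraries. The pairs Socs2 with Cish, at r = 0.728 (adjusted permutation p = 0.0602), and Socs2 with Bcl6, at r = −0.685 (adjusted permutation p = 0.0682), did not pass. The deviations of Stat5a and Igf1 were also opposed, at r = −0.632 (adjusted permutation p = 0.186), which did not pass. In old WT livers the 2 with the lowest Igf1, old WT 1 and 5, had the highest Stat5a at 27.7 and 30.3 CPM and the lowest Socs2 at 9.40 and 8.62 CPM.

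**Figure D4:**
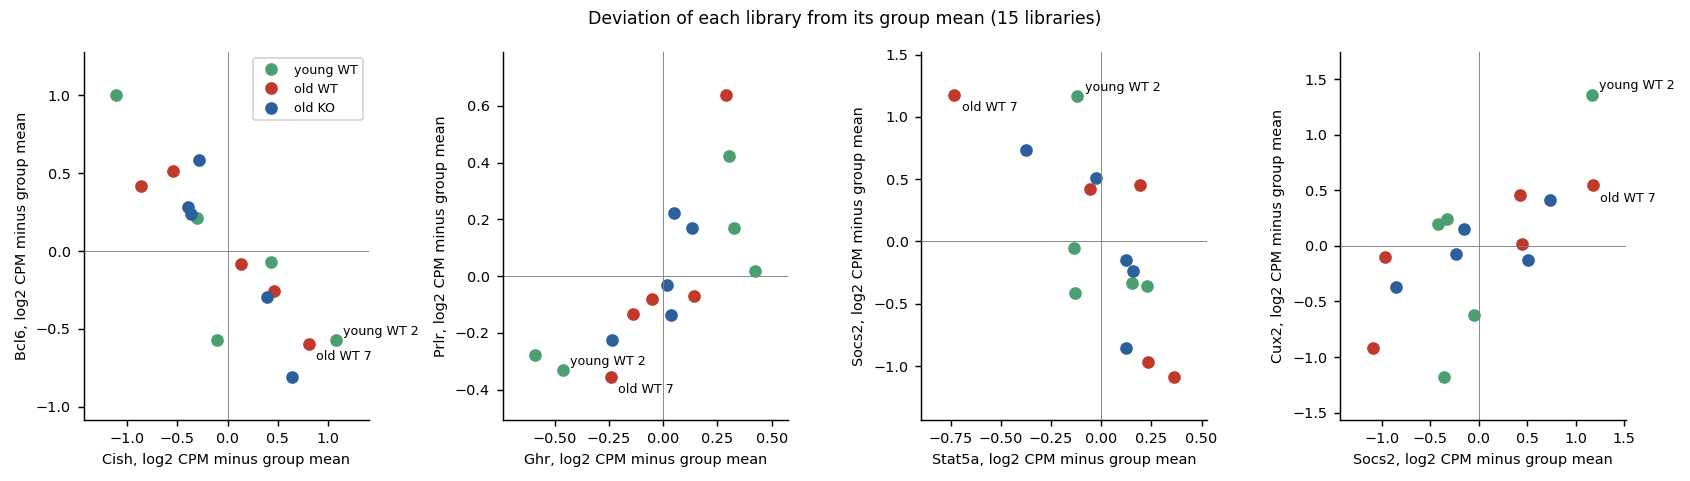
Deviation of each liver from its group mean in log2 CPM for the 4 pairs of axis genes that passed after adjustment, 1 point for each of 15 livers. Cish and Bcl6 run along a falling line (r = −0.874), Ghr and Prlr along a rising one (r = 0.756), and young WT 2 and old WT 7 lie at the high end of Socs2.

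The genes most like each member were ranked by Pearson's r of log2 CPM over all 15 libraries among 12115 genes with a mean of at least 1 CPM, as a description without a test, since the difference between young and old groups is part of r. For Ghr they were Timd2 (r = 0.934, and 0.793 after group means were subtracted), Akr1c20 (0.934 and 0.824) and Apol7a (0.929 and 0.779). For Prlr they were Eci3 (0.951 and 0.884), Timd2 (0.935 and 0.797) and Rcan2 (0.932 and 0.865), so that Timd2 was shared by both receptors. For Stat5a they were Rpusd4 (0.909 and 0.845), Hdhd3 (0.908 and 0.849) and Alad (0.903 and 0.853), and for Igfals Mbtps1 (0.932 and 0.784), Dhrs3 (0.929 and 0.788) and Pklr (0.926 and 0.788). The best matches of Igf1 were weaker, with 2810008M24Rik (0.869 and 0.830), Zhx1 (0.868 and 0.840) and Pcmtd1 (0.861 and 0.827).

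Other components of growth hormone receptor signalling, which include the JAK kinases, adaptors, phosphatases and further SOCS proteins, mostly did not pass the test. Of 26 tested genes 4 rose with age and none fell (9.92% and 8.91% of all tested genes), with a median log2 fold change of 0.11. The 4 were the kinase Tyk2 (0.52 ± 0.0961, adjusted p = 0.00255), Stat3 (0.35 ± 0.109, adjusted p = 0.0336), the phosphatase Ptpn6 (0.26 ± 0.0877, adjusted p = 0.0481) and the adaptor Grb2 (0.20 ± 0.0641, adjusted p = 0.0411). Tyk2 was at 17.2 ± 1.501 CPM in young WT and 24.5 ± 3.18 in old WT livers. The calls of Stat3, Ptpn6 and Grb2 were lost in 6, 12 and 9 of the 15 fits without 1 library, with adjusted p up to 0.0781 (without old WT 5), 0.120 and 0.107 (both without young WT 2). Between old KO and old WT livers none of the 26 passed (median −0.0214).

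Of 12 tested genes of the IGF system, 1 rose and 1 fell with age (median −0.0723), against 9.92% and 8.91% of all tested genes. Igfbp5, which encodes an IGF-binding protein, rose from 6.02 ± 2.76 to 16.3 ± 4.31 CPM (log2 fold change 1.43 ± 0.388, adjusted p = 0.0186, and 0.0511 without young WT 1). Furin, which encodes a protease that processes precursor proteins, went from 244 ± 43.3 to 194 ± 9.25 CPM (−0.33 ± 0.108, adjusted p = 0.0437), a call lost in 12 of the 15 fits without 1 library (adjusted p up to 0.115, without young WT 1). None of the 12 passed between the old genotypes (median 0.0613).

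Among 20 tested regulators that respond to growth hormone or shape its action in liver, 4 rose and 1 fell with age (median −0.0814), where 9.92% of all tested genes rose and 8.91% fell. Egfr, which encodes the epidermal growth factor receptor and depends on growth hormone for its level in liver, fell from 198 ± 54.4 to 63.7 ± 26.2 CPM (−1.64 ± 0.283, adjusted p = 0.00156), with no overlap. Esr1, which encodes the oestrogen receptor, rose from 32.4 ± 10.7 to 52.6 ± 6.996 CPM (0.70 ± 0.224, adjusted p = 0.0391), a call lost in 6 of the 15 fits without 1 library (adjusted p up to 0.0769, without young WT 2). Fos, an immediate early gene, was low throughout, at 1.98 ± 0.506 CPM in young WT, 3.54 ± 1.56 in old WT and 1.27 ± 0.423 in old KO livers. It rose with age (0.83 ± 0.272, adjusted p = 0.0429) and was the 1 gene of the list to pass between the old genotypes, where 0.421% of all tested genes were called lower (−1.47 ± 0.286, adjusted p = 0.0337), but without old WT 7, its highest library, neither passed (adjusted p = 0.111 and 0.0590). The age call of Fos was lost in 8 of the 15 fits without 1 library and its genotype call in 7.

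Sex-biased liver genes are the classical readout of the pattern in which growth hormone reaches the liver. In these female mice the male-biased genes that passed fell with age, while most female-biased genes that passed rose. Growth hormone itself was not measured in these data, and the cause of these changes was not tested. Of 19 tested male-biased genes 8 fell and none rose (8.91% and 9.92% of all tested genes), and the median log2 fold change was −0.81. Cyp2d9, a steroid hydroxylase, fell from 45.2 ± 23.9 to 3.55 ± 1.88 CPM (−3.66 ± 0.493, adjusted p = 0.000342), and Susd4 from 4.70 ± 2.19 to 0.547 ± 0.183 CPM (−3.08 ± 0.464, adjusted p = 0.000710). Mup3, a major urinary protein, fell from 1699 ± 486 to 360 ± 207 CPM (−2.24 ± 0.442, adjusted p = 0.00348). Serpina1e had the largest fitted fall (−3.91 ± 1.22, adjusted p = 0.0350) but ranged from 11.8 to 836 CPM among young WT livers, and its call was lost in 6 of the 15 fits without 1 library (adjusted p up to 0.0790, without young WT 4).

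Of 32 tested female-biased genes 17 rose and 3 fell with age (9.92% and 8.91% of all tested genes), with a median log2 fold change of 1.06. A1bg rose from 97.7 ± 104 to 2378 ± 1533 CPM (4.61 ± 0.847, adjusted p = 0.00237) and Hao2, a peroxisomal hydroxyacid oxidase, from 3.55 ± 3.93 to 73.1 ± 26.1 CPM (4.43 ± 0.629, adjusted p = 0.000499). Cyp3a41b, a cytochrome P450, rose from 1.75 ± 1.71 to 49.0 ± 32.4 CPM (4.87 ± 1.05, adjusted p = 0.00562), although old WT 7 was at 0.880 CPM, within the young range. The sulfotransferase Sult3a1 went against its list and fell from 168 ± 73.1 to 6.03 ± 3.80 CPM (−4.80 ± 0.548, adjusted p = 0.000108). Without young WT 2 and old WT 7 the counts were 9 lower among male-biased and 16 higher and 4 lower among female-biased genes. Of all 14296 genes tested in that fit 6.83% were called higher and 1023 lower. The Mup, Cyp2d, Cyp3a, Sult and Serpina1 genes belong to families of near-identical copies, among which short reads can be split or lost, so values of single family members are uncertain.

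Between the old genotypes 1 sex-biased gene passed the test. None of 19 male-biased genes passed (median 0.41), and 1 of 32 female-biased genes rose (median 0.0564), where 0.112% of all tested genes were called higher. That gene was Sult3a1, at 48.3 ± 26.7 CPM in old KO and 6.03 ± 3.80 in old WT livers (2.999 ± 0.512, adjusted p = 0.0223), and its call was lost in 5 of the 15 fits without 1 library (adjusted p up to 0.0798, without old WT 1). In old KO against young WT livers 8 male-biased genes fell (11.3% of all tested genes were lower and 12% higher) and 1 rose, and 17 female-biased genes rose and 2 fell (medians −0.74 and 1.17, with the same young WT livers as above). The lists were compiled from general knowledge and describe these libraries.

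**Figure D5:**
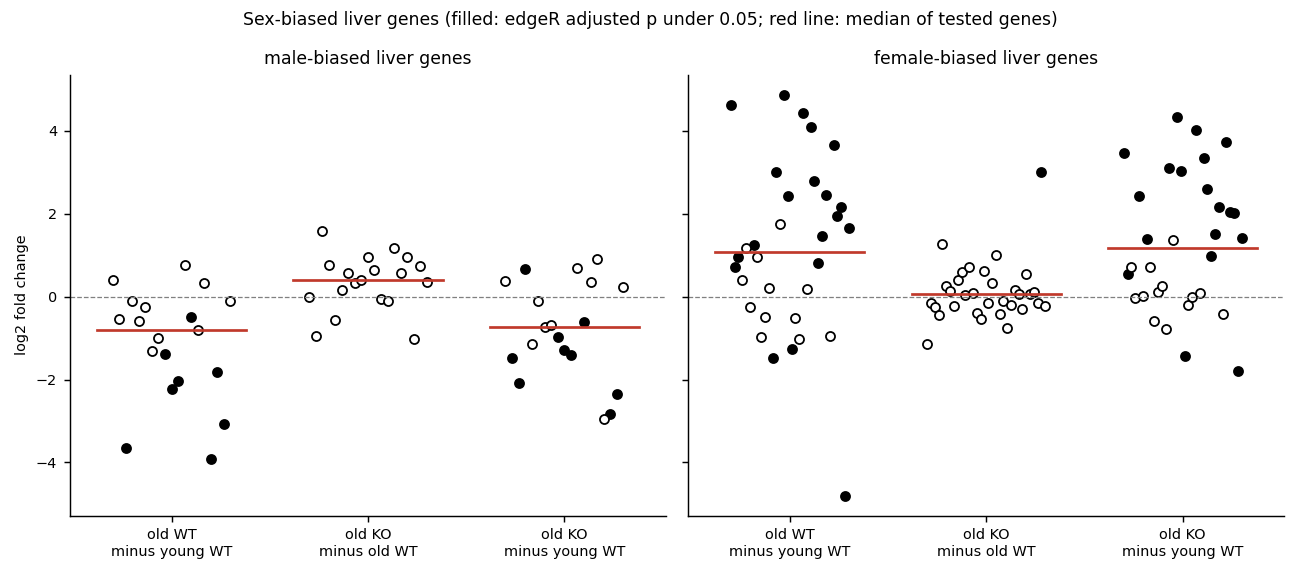
Log2 fold change of each tested male-biased (19) and female-biased (32) liver gene in the 3 comparisons, with filled points for an edgeR adjusted p under 0.05 and a red line at the median of the list. The medians are −0.81 and 1.06 for old WT against young WT, 0.41 and 0.0564 between the old genotypes, and −0.74 and 1.17 for old KO against young WT.

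Markers of other cell types moved between the groups as well. The 6 B and plasma cell markers summed to 5.43 to 13.1 CPM in young WT, 40.4 to 100.5 CPM in old WT and 55.0 to 678 CPM in old KO livers, and 3 of the 6 were called higher with age (9.92% of all tested genes). Between the old genotypes 0 of these 6 were called, and 4 were lower and 2 higher in old KO livers (median log2 fold change −0.33). The higher sums in old KO livers thus did not reflect most of these markers. The 8 T and NK cell markers summed to 2.47 to 6.12, 4.20 to 12.1 and 2.53 to 7.23 CPM in the same order, and 3 of the 8 were called higher with age. Macrophage and Kupffer cell markers were called lower in old KO against old WT livers in 5 of 10 cases (0.421% of all tested genes), with sums of 183 to 419.5 CPM in young WT, 241 to 592 CPM in old WT and 144 to 220.3 CPM in old KO livers. None of these lists had a marker at 0 in a whole group. Of the 8 hepatocyte markers 1 was called higher and 2 lower with age (9.92% and 8.91% of all tested genes), and none between the old genotypes. In direction, all 8 hepatocyte markers were higher in old KO than in old WT livers (median log2 fold change 0.22). All 8 T and NK cell markers were lower there (median −0.72, none called), as were all 10 macrophage markers (median −1.19). Of all 14258 tested genes 7157 were higher in that comparison. The part of these cell types in the values of the axis genes was not tested.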

How the data were processed

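Whole-liver RNA was prepared with Trizol from flash-frozen tissue, and polyadenylated libraries (TruSeq Stranded mRNA) were sequenced as single-end reads. The authors used CASAVA, TopHat2 2.0.11 on mm9 and HTSeq, and deposited raw read counts per Ensembl gene, with no normalization. The annotation and strand setting of the counting are not given in the sources used here. Every one of the 15 columns matched a labelled sample, and each library came from a separate mouse. DESeq2 1.18.1 is listed in the submitters' processing notes.

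Gene symbols and positions came from GENCODE M1 (NCBIM37), which placed 37205 of 37991 identifiers. Of 205 list entries 204 were matched. Where a symbol had several identifiers (Cux2, Trf), the longest protein-coding gene was used. All 15 libraries were fitted together with edgeR 4.0.16 in R 4.3.3 (TMM scaling, filterByExpr, glmQLFit and glmQLFTest, no covariates, common biological coefficient of variation 0.189), and the 3 contrasts were adjusted by the Benjamini-Hochberg method over 14258 genes at a threshold of 0.05. Levels are TMM-scaled CPM. Log2 CPM used a prior count of 2 and ratios a pseudocount of 0.5. Ratios were compared by exact permutation over 252 assignments, and correlations by 100000 permutations of deviations within groups. All 30 pairs of replicates within groups differed by more than sampling noise (chi-square per degree of freedom 18.2 to 117.6). The fits were tested on simulated data.

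The members and gene lists were chosen with earlier results of these data known, so they give no independent support. Named besides the members were up to 4 genes per pathway list and contrast with the largest absolute log2 fold change among those past the threshold whose level averaged 1 CPM or more in the libraries of that contrast, the 3 genes most correlated with each member called with age or genotype and with Igf1, and Rps6kb1. The values of 1 gene that this rule names are not reported here. Alternatives were other size factors, no filter, DESeq2 1.42.0, limma 3.58.1 (voom), the 10 libraries of a contrast alone, a replicate block, each library left out in turn, and, added after the data were seen, young WT 2 and old WT 7 left out together. Promoter windows and their sequences were those of RefSeq (GRCm38.p6), and their coordinates were not converted to NCBIM37. Lists of endothelial, stellate, bile duct, adipocyte, pancreas and red blood cell markers were counted the same way, and their results are given with the other observations.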

Additional observations from a re-analysis of the deposited data

Results flagged for a closer look

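In 45 groups of 5 values (the 10 members and 5 ratios in 3 groups), 4 had a highest or lowest library separated from the others by more than Dixon's 95% critical value of 0.71, where chance gives about 1 in 20. Socs2 in young WT 2 was at 56.0 CPM, with a gap to the next library of 0.856 of the range of its group. Prlr in old WT 10 was at 892 CPM, with a gap of 0.780 of the range. Igfals in old KO 5 was at 78.1 CPM, below the other old KO livers by 0.752 of the range. The log2 ratio of Stat5a to Stat5b in old WT 7 was −2.16, below the other old WT livers by 0.831 of the range.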

How the results depend on the processing

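The age calls of Ghr, Igfals and Prlr kept their direction and side of the threshold in all 15 fits without 1 library and in the 8 other alternatives, except Prlr under the replicate block (log2 fold change 0.76, adjusted p = 0.0596). That of Stat5a was also lost without a filter (adjusted p = 0.0527), with voom (0.0692), with the 10 libraries alone (0.0744) and under the block (0.0606). Of the other named list genes, Tyk2, Cyp2d9, Susd4, Mup3, Egfr, A1bg, Hao2 and the age call of Sult3a1 were not lost in any fit, while Cyp3a41b was lost with limma voom (adjusted p = 0.162). Between the old genotypes 0 members were called under any alternative, while the genes called numbered 76 in edgeR, 309 in DESeq2, 23 in limma voom and 35 without young WT 2 and old WT 7. Without a filter on low counts 3 members were called in old KO against young WT. Leaving out 1 library gave 1748 (without young WT 1) to 3284 (without young WT 6) genes called with age, 9 (without old WT 4) to 108 (without young WT 2) between the old genotypes, and 3 to 5 members in old KO against young WT. The cause of these changes was not tested.

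Log2 fold changes that changed sign were all among members that did not pass the test. Between the old genotypes Stat5a was at 0.000734 with RLE size factors, 0.00281 in DESeq2 and 0.0277 in voom, Prlr at 0.00167, 0.00351 and 0.0273, and Igfals at 0.00189 in voom. With age Cish was at −0.0178 in voom. Without young WT 2 and old WT 7, Igf1 was at −0.0512 with age, and between the old genotypes Ghr was at −0.00449 and Socs2 at 0.0125. Ranges over the fits without 1 library were, with age, −0.0209 to 0.17 for Igf1, −0.69 to 0.0966 for Socs2, −0.22 to 0.36 for Cish and −0.30 to 0.18 for Bcl6. Between the old genotypes they were −0.0140 to 0.13 for Ghr, −0.15 to 0.0869 for Stat5a, −0.0133 to 0.12 for Stat5b, −0.10 to 0.0462 for Igfals, −0.57 to 0.00112 for Socs2 and −0.0933 to 0.20 for Prlr, and Bcl6 in old KO against young WT ranged from −0.0144 to 0.48. As differences of medians, the ratio of Ghr to Prlr was 0.15 with age and −0.0134 between the old genotypes, and that of Socs2 to Cish −0.0184. Without 1 library the ratio of Ghr to Prlr ranged from −0.0793 to 0.0999 with age and from −0.0617 to 0.0797 between the old genotypes, Stat5a to Stat5b there from −0.17 to 0.0628 and Socs2 to Cish from −0.17 to 0.24.

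Replicate numbers were shared between groups, and the labels give only the number. Deviations of libraries with the same number correlated at −0.154 to 0.0770 over 9 pairs (median 0.00205). For the 66 pairs with other numbers the range was −0.267 to 0.355 (median −0.000947). Whether mice of the same number shared a litter or handling cannot be read from these correlations. With the replicate number as a block, 899 genes and 2 members were called with age and 6 genes between the old genotypes. In that block fit Cish with age was at −0.0390, Stat5b and Prlr between the old genotypes at −0.0486 and 0.15, and Bcl6 in old KO against young WT at −0.0507.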

Other observations

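Marker lists that were not needed beside the axis genes gave the following counts. Over all tested genes 9.92% were called higher and 8.91% lower with age. With age, 2 of 6 sinusoidal endothelial markers were lower, 1 of 7 stellate cell and fibroblast markers was higher and 1 lower, 1 of 5 bile duct cell markers was higher, and none of 3 tested adipocyte and mesothelial markers passed (edgeR adjusted p under 0.05). Of the 10 macrophage markers 2 were higher with age. No red blood cell marker passed with age or between the old genotypes, whereas all 5 were higher in old KO than in young WT livers (12% of all tested genes), with sums of 107 to 395 CPM in old KO and 47.3 to 110.2 CPM in young WT. No pancreas acinar marker passed the filter on low counts, and their sum was at most 0.301 CPM in any library.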
